A study of Mus musculus with 12 samples.

Results

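RNA pulled down by the tag of astrocyte ribosomes from a synapse-enriched fraction of mouse brain was compared with RNA of whole tissue. Some messages of neurons and of myelin were also higher in it, and which cells its RNA came from was not tested. The libraries were chosen by their titles: 3 immunoprecipitates from a synaptoneurosome layer, called PAP TRAP here, and 3 whole-tissue inputs taken ahead of a pull-down, called cortex input, so 6 of the 12 libraries of the series. All came from cortex and hippocampus of Aldh1L1::RPL10a-eGFP mice of strain C57/Bl6 at postnatal day 21, and all were treated with cycloheximide at 1 ug/mL, which holds ribosomes on their messages, and TTX at 1 mM, which blocks sodium channels. The transgene fuses eGFP to Rpl10a, a protein of the large ribosomal subunit, and is driven by an astrocyte promoter. The animals behind the inputs carried it too. The labels name astrocytes as the cell type of every library, inputs included, and give 1 extract protocol for all of them. They do not say which or how many animals made a library. The p-values below therefore measure the spread between libraries, pooled over all 12 of the series, which may be technical.

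Astrocytes are branched glial cells whose finest processes wrap synapses, take up glutamate and potassium released there, and supply lipids and other factors. Some of their messages are carried into these processes and translated away from the cell body. Translating ribosome affinity purification (TRAP) captures ribosomes by an antibody against their tag, and with them the messages being translated. A synaptoneurosome layer is a sucrose-gradient fraction of pinched-off synapses together with the membranes attached to them. The comparison asks how the RNA obtained after fractionation and pull-down differed from the RNA of the starting tissue, and by itself it cannot tell these 2 steps apart.

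Gene counts ranged from 10368296 to 12168436 per cortex input library and from 9944893 to 10671362 per PAP TRAP library. Transcripts of the mitochondrial chromosome took 44.8% to 50.2% of the gene counts in cortex input and 35.6% to 47.6% in PAP TRAP. Reads assigned to no gene made up 31.9% to 35.6% of the deposited counts in cortex input, 35.6% to 35.7% in PAP TRAP 1 and 3, and 52.9% in PAP TRAP 2. Spearman correlations across genes lay between 0.931 and 0.958 among the inputs, between 0.865 and 0.906 among the PAP TRAP libraries, and between 0.815 and 0.866 across the groups.

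Of 13364 genes tested, 2122 (15.9%) passed an adjusted p of 0.05 in the edgeR quasi-likelihood test. Of these, 1413 were higher in PAP TRAP (10.6% of the genes tested) and 709 were lower (5.31%). Counts of list members given below are to be read beside these shares. At least 4-fold differences were held by 630 of the higher and 241 of the lower genes, and at least 16-fold differences by 76 and 82. The median log2 change was -0.04 over all genes tested, 1.87 over the higher and -1.64 over the lower genes. The count of called genes was 1316 without cortex input 1, 1314 without cortex input 2 and 1330 without cortex input 3. Levels of the groups did not overlap for 5240 genes (39.2%), with PAP TRAP above in 18.8% and below in 20.4% of the genes tested. Of the 2122 called genes 2083 had no overlap, so a lack of overlap given below for a called gene adds little to its call. Levels below are normalized CPM, counts scaled to a common library size, and changes are log2 fold changes ± SE of PAP TRAP over cortex input, with 3 libraries per group.

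**Figure D1:**
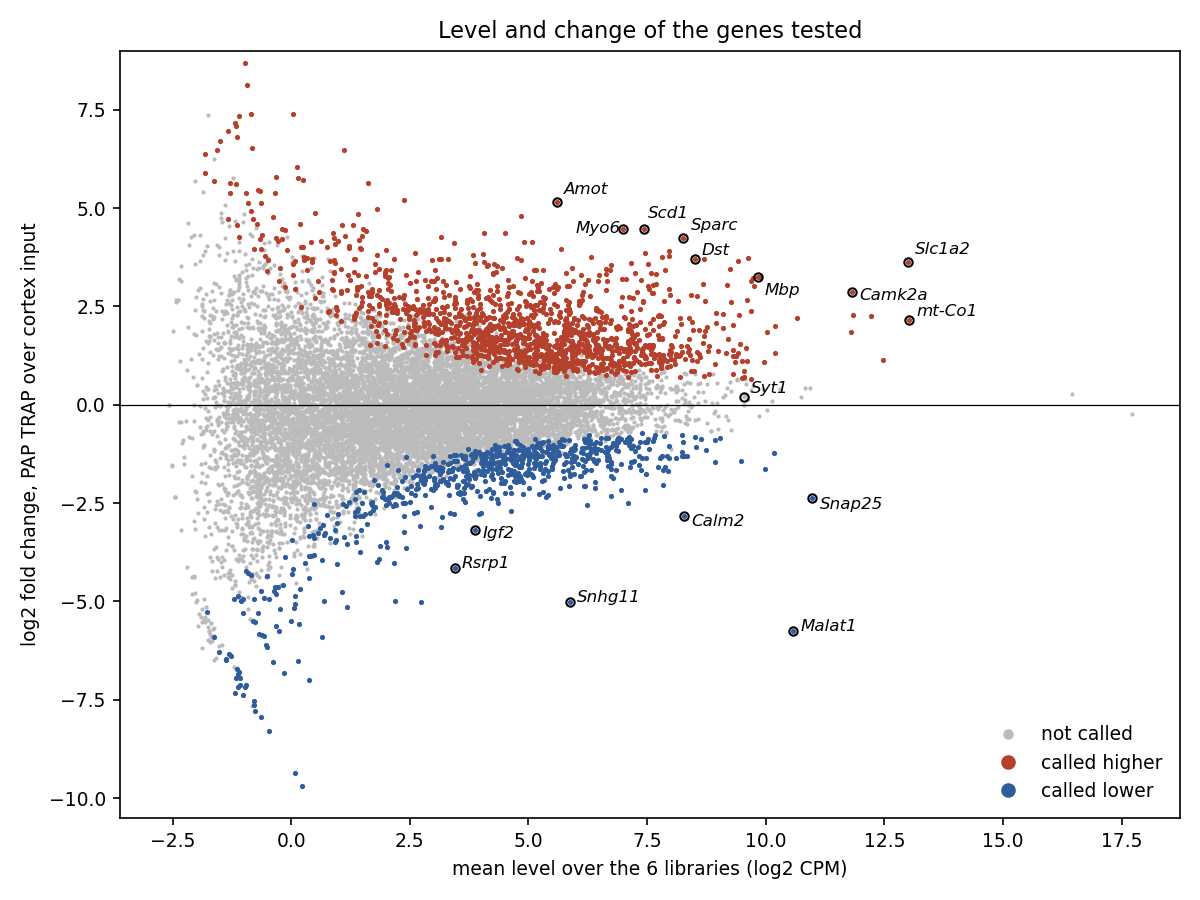
Each point is 1 of 13364 genes, with its mean level over the 6 libraries (log2 CPM, horizontal) and its log2 fold change of PAP TRAP over cortex input (vertical). Red points passed the test as higher (1413 genes) and blue points as lower (709). Malat1 and Snhg11 lie lowest among well-expressed genes, and Amot lies highest of those labelled.

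The largest rise among called genes with a mean level of at least 3 log2 CPM and no overlap was that of Amot, which encodes angiomotin, a scaffold of tight junctions and of the Hippo pathway. It measured 12.6, 5.12 and 7.34 CPM in the 3 inputs and 266, 288 and 339 CPM in the 3 PAP TRAP libraries. That is 35.6-fold higher (95% interval 20.6 to 61.5, adjusted p = 4.70e-08), and no PAP TRAP value came near the inputs. Myo6, a myosin that moves toward the minus end of actin filaments, went from 18.6, 23.5 and 40.3 CPM to 584, 628 and 626 CPM (4.48 ± 0.32). Myh9, the heavy chain of nonmuscle myosin IIA, stood at 7.09, 8.38 and 2.02 CPM in the inputs against 207, 152 and 129 CPM (4.8 ± 0.55). Lcp1, an actin bundling protein best known from leukocytes, stood at 6.70, 3.52 and 5.01 CPM against 138, 104 and 70.7 CPM (4.36 ± 0.65). All 4 genes were taken from those without overlap, so the separation of their groups was set by that choice.

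Several of the other large rises were genes of astrocyte lipid metabolism and of the cell surface. Scd1, a stearoyl-CoA desaturase, was 22.0-fold higher (95% interval 14.6 to 32.9), with 36.4, 36.1 and 39.3 CPM in the inputs and 547, 1036 and 873 CPM in PAP TRAP. Etnppl, a phospholyase that breaks down phosphoethanolamine and is found mainly in astrocytes of the brain, rose by 4.27 ± 0.49 from 1.77, 1.99 and 2.08 CPM to 31.6, 39.0 and 42.4 CPM. The receptors Lrp4, which binds agrin (4.36 ± 0.41), and Plxnb1, a plexin for semaphorins (4.15 ± 0.33), rose as well. Sparc, a secreted protein that acts on the matrix and on synapses, went from 67.1, 87.1 and 67.2 CPM to 865, 2144 and 1163 CPM (4.24 ± 0.31). The noncoding transcript 2900052N01Rik (4.13 ± 0.40) and the mitochondrial cysteine tRNA mt-Tc (4.11 ± 0.51, and 2.43 with offsets corrected for transcript length) closed this set with Fads2, a fatty acid desaturase (3.97 ± 0.36).

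Among called genes with a mean level of at least 3 log2 CPM and no overlap, the largest falls were those of Malat1, Snhg11 and Rsrp1. Malat1, a long noncoding RNA retained in nuclear speckles, measured 12328, 9297 and 14198 CPM in the inputs and 209, 111 and 343 CPM in PAP TRAP. It was 54.0-fold lower (95% interval 25.3 to 115, adjusted p = 4.35e-07). Snhg11, a brain long noncoding RNA that hosts small nucleolar RNAs, fell from 348, 267 and 389 CPM to 10.2, 9.92 and 10.7 CPM (-5.02 ± 0.37). Rsrp1, which encodes an arginine- and serine-rich protein, fell from 61.0, 45.9 and 34.6 CPM to 2.19, 4.38 and 1.40 CPM (-4.15 ± 0.61). The lack of overlap was a condition for naming these 3 and adds nothing to their calls.

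The remaining falls were mostly of protein-coding messages of neurons or of other cells. Igf2, a growth factor made largely by the meninges and choroid plexus, went from 51.1, 34.9 and 47.8 CPM to 6.67, 4.05 and 3.89 CPM (-3.20 ± 0.35). Calm2, 1 of the genes encoding calmodulin, went from 761, 880 and 843 CPM to 126, 91.2 and 135 CPM (-2.82 ± 0.26). Pcp4, a small calmodulin-binding protein of neurons, went from 68.3, 71.1 and 51.2 CPM to 8.69, 7.6 and 13.1 CPM (-2.70 ± 0.34). Prkar2b, a regulatory subunit of protein kinase A, fell by 2.78 ± 0.48, and Phlda1, a pleckstrin homology domain protein, by 2.75 ± 0.60. For 4 others the size rested partly on 1 library. Rab9b, a small GTPase, changed by -3.10 ± 0.61 and by -3.88 without PAP TRAP 1. The ubiquitin ligase gene Rnf227 changed by -2.85 ± 0.61 and by -4.01 without PAP TRAP 1. Sncb, which encodes beta-synuclein, changed by -2.77 ± 0.57 and by -3.61 without PAP TRAP 2. Zcchc7, a zinc finger protein of nuclear RNA decay, changed by -2.74 ± 0.58 and by -3.56 without PAP TRAP 3.

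**Figure D2:**
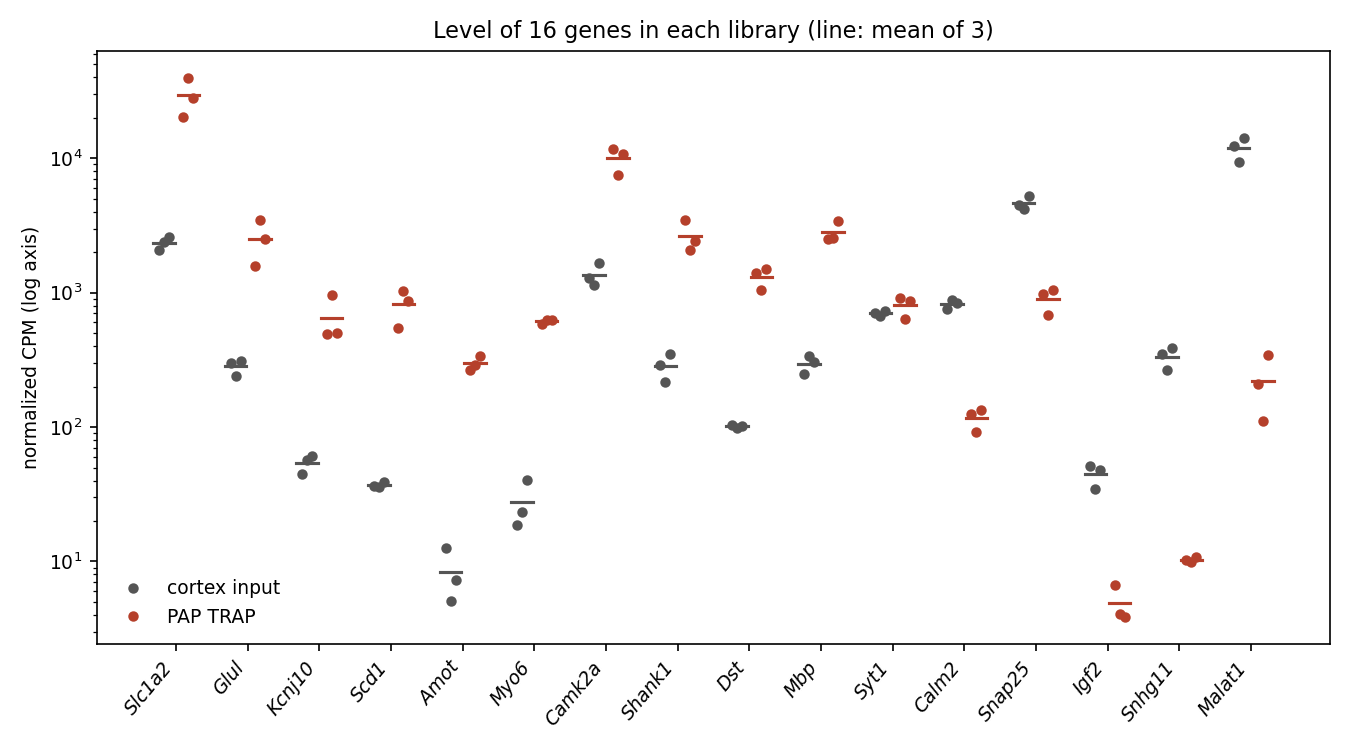
Level of 16 genes in each of the 6 libraries (normalized CPM, log axis), with a grey point per cortex input library, a red point per PAP TRAP library and a line at each mean of 3. For Syt1 the groups overlap. For the other 15 genes they do not, with Malat1 between 9297 and 14198 CPM in the inputs and between 111 and 343 CPM in PAP TRAP. These 15 were picked from called genes, of which 2083 of 2122 had no overlap, so their separation adds nothing to the calls.

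Astrocyte markers rose as a whole. All 30 of the 30 markers listed were tested and called higher, against 10.6% of all genes, with changes from 1.35 to 3.74 and a median of 3.05 beside -0.04 over all genes. Together they took 1.12% to 1.18% of nuclear gene counts in the inputs and 6.29%, 12.1% and 7.96% in PAP TRAP 1, 2 and 3. PAP TRAP 2 held the largest share. In bulk samples, fewer cells of a type and less RNA per cell cannot be told apart, and a share of counts moves with all other RNAs. Aldh1l1, a folate enzyme whose promoter drives the tag, went from 6.15, 5.12 and 11.1 CPM to 18.9, 37.7 and 28.7 CPM (1.93 ± 0.43, adjusted p = 0.00422). The tagged protein's own gene, Rpl10a, showed no detectable difference at this depth, with 2.18 ± 1.66 CPM in the inputs and 2.09 ± 0.61 CPM in PAP TRAP (SD, log2 change -0.05 ± 0.88).

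Uptake of transmitter was represented strongly. Of 13 tested genes of glutamate and GABA uptake and metabolism, 9 rose and 2 fell (median 2.03), with 1 lower without cortex input 2, cortex input 3 or PAP TRAP 1 and none without PAP TRAP 2. Slc1a2, which encodes GLT-1, the transporter that clears most glutamate in the forebrain, went from 2086, 2399 and 2590 CPM to 20219, 39740 and 28242 CPM, 12.5-fold higher (95% interval 8.43 to 18.4). Its relative Slc1a3, or GLAST, stood at 63.6, 66.0 and 65.5 CPM against 385, 713 and 493 CPM (3.03 ± 0.26). Glul, glutamine synthetase, stood at 300, 240 and 308 CPM against 1586, 3444 and 2522 CPM (3.16 ± 0.27). All PAP TRAP values of these 3 genes lay above all inputs, with PAP TRAP 2 the highest each time. Got1, a cytosolic transaminase, was among those that fell (-1.11 ± 0.30). The call of Got1 ended without cortex input 2, cortex input 3, PAP TRAP 1 or PAP TRAP 2 (adjusted p = 0.0729, 0.0564, 0.0711 and 0.0651).

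Of 13 channels, pumps and gap junction genes of astrocytes, 10 rose, none fell, and the median was 2.44. Kcnj10, the inward rectifier Kir4.1 that takes up potassium, went from 44.6, 57.3 and 60.6 CPM to 492, 964 and 498 CPM (3.59 ± 0.32). Aqp4, the water channel of perivascular endfeet, rose by 2.55 ± 0.35, and Gja1, the gap junction protein connexin 43, by 1.92 ± 0.35. Gfap, the intermediate filament of the thicker processes, stood at 20.9, 19.9 and 21.0 CPM against 128, 218 and 203 CPM (3.15 ± 0.32). These genes showed no overlap between the groups, which held for 2083 of the 2122 called genes.

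Genes that act on synapses from the astrocyte surface or from the matrix followed the same direction. Of 20 tested, 12 rose and none fell, with a median of 2.11. Ptprz1, a receptor phosphatase that is also shed as a matrix proteoglycan, went from 62.7, 61.6 and 58.9 CPM to 745, 971 and 774 CPM (3.76 ± 0.23). Sparcl1, or hevin, a secreted promoter of synapse formation, went from 168, 214 and 177 CPM to 1721, 2542 and 1809 CPM (3.44 ± 0.25). Among 16 surface receptors 11 rose and none fell (median 1.5). They included Ntrk2, the receptor of BDNF, at 269, 218 and 266 CPM against 1182, 1895 and 1568 CPM (2.62 ± 0.23), and Egfr, the EGF receptor, at 2.88 ± 0.31. The metabotropic glutamate receptor gene Grm3 rose by 2.42 ± 0.29, and the GABA-B receptor genes Gabbr1 and Gabbr2 by 1.68 ± 0.23 and 1.15 ± 0.23.

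Of 18 glial transcription regulators, 7 rose and none fell (median 0.68, and 0.28 without PAP TRAP 2). Lhx2, a homeobox factor, went from 27.5, 31.6 and 45 CPM to 111, 228 and 139 CPM (2.20 ± 0.33). Emx2, another homeobox factor, rose by 2.58 ± 0.39. Sox9, a factor of astrocyte identity, had the smallest rise of the 30 astrocyte markers, from 12.6, 14.2 and 15.8 CPM to 26.1, 50.8 and 31.9 CPM (1.35 ± 0.28). Id3, an inhibitor of basic helix-loop-helix factors, stood at 8.81, 5.92 and 7.09 CPM in the inputs and 9.04, 8.02 and 3.81 CPM in PAP TRAP, so the groups overlapped, and its change of -0.07 ± 0.34 did not pass (adjusted p = 0.925).

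**Figure D3:**
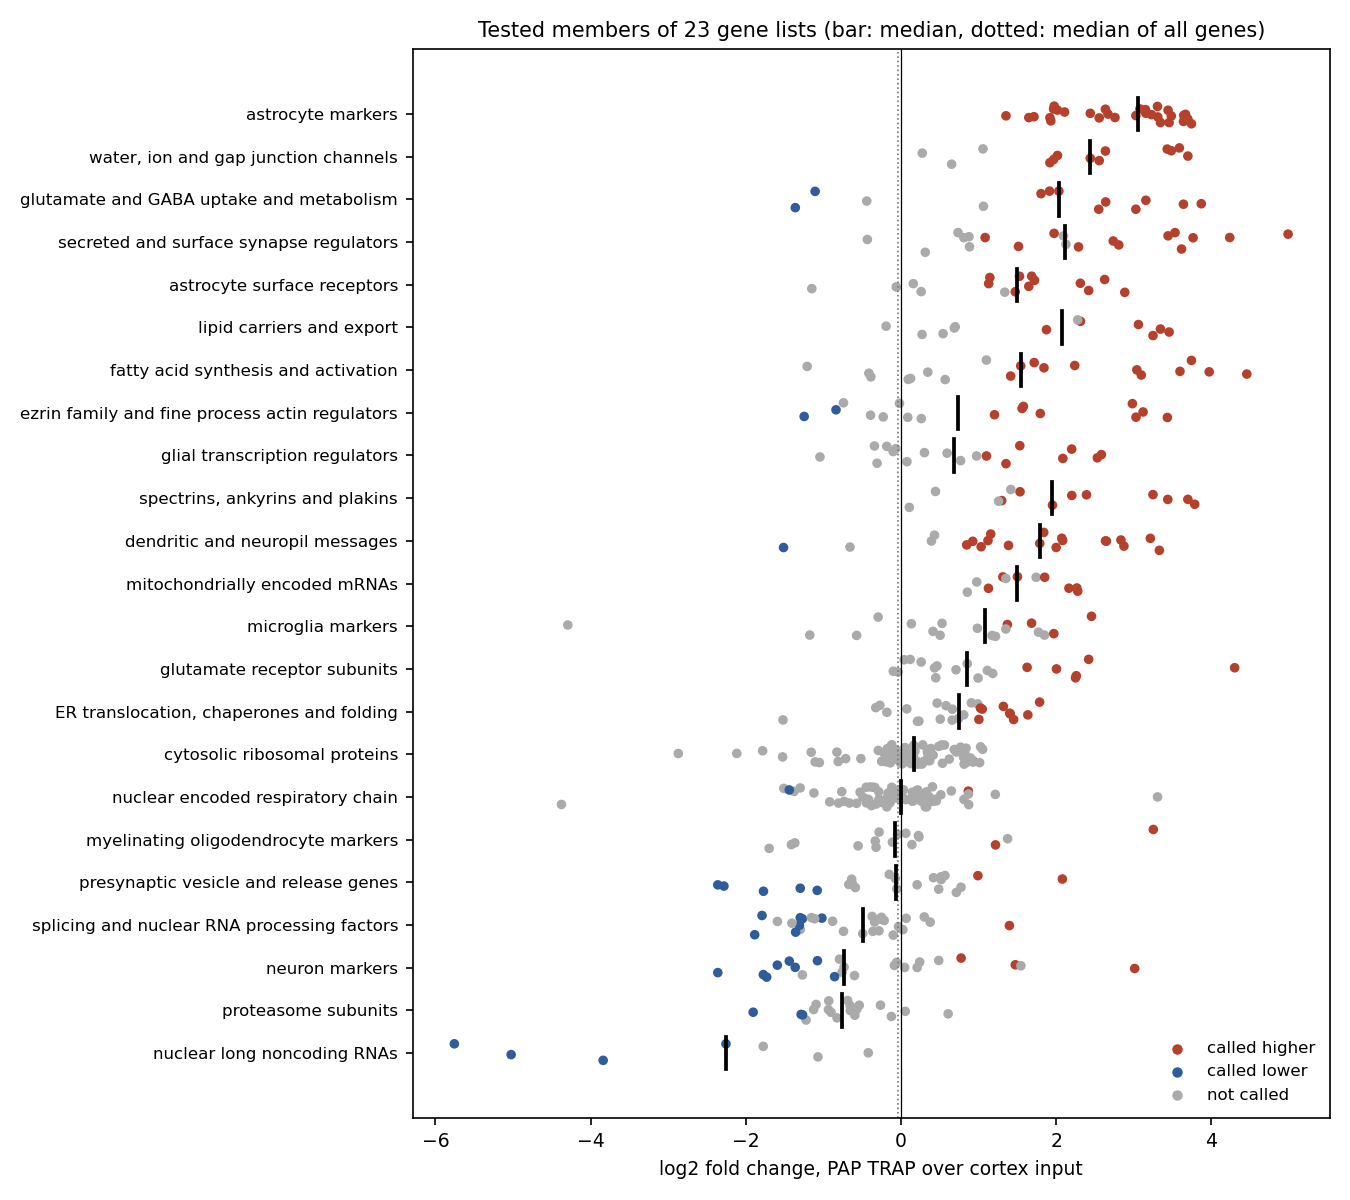
Log2 fold change of PAP TRAP over cortex input for each tested member of 23 gene lists, 1 point per gene, red where called higher, blue where called lower and grey where not called. Black bars mark each list's median and the dotted line the median of all genes (-0.04). Every tested astrocyte marker is red, from 1.35 to 3.74, and no tested nuclear long noncoding RNA lies above 0.

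Lipid genes rose in number. Of 19 genes of fatty acid synthesis and activation 11 rose and none fell (median 1.54), and of 12 lipid carriers and exporters 6 rose and none fell (median 2.08). Beside Scd1 and Fads2 above, Fads1, the other front-end desaturase, went from 44.2, 43.2 and 39.2 CPM to 337, 724 and 470 CPM (3.6 ± 0.29). Apoe, the main lipoprotein of the brain, went from 27.2, 34.4 and 30.6 CPM to 254, 482 and 275 CPM (3.46 ± 0.30). Clu, also a lipid-binding secreted protein, rose by 3.34 ± 0.26. Of 20 genes of cholesterol synthesis 6 rose (median 0.88), led by the demethylase gene Cyp51 at 2.21 ± 0.28 and including the regulator Srebf2 at 1.51 ± 0.29. That count was 3 without cortex input 2, without cortex input 3 or without PAP TRAP 3.

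Genes of sugar metabolism were called about as often as genes in general. Of 21 genes of glycolysis, glycogen and lactate 3 rose and 1 fell (14.3% and 4.76%, against 10.6% and 5.31% of all genes). Their median was 0.35, and it was 0.15 without cortex input 3, -0.04 without PAP TRAP 1 and 0.14 without PAP TRAP 2. Pygb, the brain isoform of glycogen phosphorylase, rose by 2.57 ± 0.28, and Aldoc, the aldolase of astrocytes, by 3.08 ± 0.28. Eno2, the neuronal enolase, fell from 170, 164 and 175 CPM to 75.6, 44 and 77.9 CPM (-1.36 ± 0.29). In serine and glycine synthesis 4 of 11 genes rose (median 0.86, and 0.33 without PAP TRAP 2). They included Psat1, a transaminase of serine synthesis, at 1.90 ± 0.34, and Slc7a10, a carrier of serine and glycine, at 3.64 ± 0.71 (4.42 without cortex input 1).

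Ezrin links membranes to actin and is a marker of the finest astrocyte processes. Its gene Ezr went from 7.98, 10.1 and 14.4 CPM to 77.1, 132 and 142 CPM (3.43 ± 0.33), with no overlap. Of 16 genes of the ezrin family and of actin regulation in fine processes 8 rose and 2 fell (median 0.73, and 0.44 without PAP TRAP 2). Gpm6b, a membrane proteolipid of glia and neurons, rose by 3.03 ± 0.30. The 2 that fell were the small GTPase gene Rhob (-1.25 ± 0.34, adjusted p = 0.0646, 0.0620 and 0.0582 without cortex input 2, PAP TRAP 1 and PAP TRAP 2) and Pfn2, the profilin of neurons. The change of Pfn2 was -0.84 ± 0.26 with adjusted p = 0.0371, and its call ended without any of the inputs and without PAP TRAP 1 or 3 (adjusted p from 0.0837 to 0.145).

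Messages known from dendrites also rose. Of 21 dendritic and neuropil messages 17 rose and 1 fell, against 10.6% and 5.31% of all genes, and their median was 1.79. Their summed share of nuclear counts was 1.99% to 2.12% in the inputs and 3.93% to 6.04% in PAP TRAP. Camk2a, a kinase of excitatory neurons whose message lies in dendrites, stood at 1291, 1131 and 1670 CPM in the inputs and 11742, 7554 and 10689 CPM in PAP TRAP, 7.33-fold higher (95% interval 4.48 to 12). Shank1, a scaffold of the postsynaptic density, stood at 290, 216 and 350 CPM against 3443, 2084 and 2422 CPM (3.21 ± 0.31). Shank3, a related scaffold, rose by 3.33 ± 0.32 (2.71 with GC-corrected offsets). Arc, an immediate early gene with dendritic RNA, went from 29.8, 55.3 and 40.3 CPM to 121, 266 and 139 CPM (2.07 ± 0.38). The member that fell was Nrgn, neurogranin, from 238, 137 and 195 CPM to 60.0, 40.7 and 98.7 CPM (-1.51 ± 0.35). For Camk2a and Shank1, PAP TRAP 2 was the lowest of its group, and for Arc it was the highest.

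Large proteins of the membrane skeleton rose alongside. Of 13 spectrins, ankyrins and plakins 9 rose and none fell (median 1.95), and their share of nuclear counts was 0.472% to 0.481% in the inputs and 1.75% to 2.14% in PAP TRAP. Dst, dystonin, a linker of actin, microtubules and intermediate filaments, went from 103, 98.0 and 102 CPM to 1391, 1041 and 1509 CPM, with no overlap (3.70 ± 0.28, and 2.94 with length-corrected offsets). Adenylyl cyclases, which make cyclic AMP, had 3 of 7 members higher and none lower. Adcy1 rose by 2.31 ± 0.25 (1.70 with length-corrected offsets) and Adcy5 by 2.40 ± 0.36.

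Motor and microtubule genes were called in both directions. Of 22 kinesin and dynein genes 8 rose and 3 fell (36.4% and 13.6%, against 10.6% and 5.31% of all genes). Their median was -0.37. Kif1a, a motor for synaptic vesicle precursors, rose from 521, 535 and 600 CPM to 2161, 1903 and 1865 CPM (1.84 ± 0.22), and Kif1b rose by 1.32 ± 0.20 (0.80 with length-corrected offsets). Klc1, a kinesin light chain, fell from 103, 97.9 and 93.3 CPM to 38.9, 32.8 and 48.8 CPM (-1.29 ± 0.26). The count of 3 lower genes was 1 without cortex input 1 and 1 without PAP TRAP 1. Of 21 tubulin and microtubule-associated genes 4 rose and 2 fell (19.0% and 9.52%). Their median was -0.07, with the other sign in 4 of the alternatives. Without cortex input 1 or 2 there were 2 higher and 0 lower, without PAP TRAP 1 there were 0 lower, and without cortex input 3 or PAP TRAP 2 there was 1 lower. Map1a, a microtubule-associated protein of dendrites, rose by 1.44 ± 0.25 (0.83 with length-corrected offsets). Tubb2b, a beta tubulin, rose by 2.45 ± 0.48 (3.03 without cortex input 2 and 1.86 without PAP TRAP 2).

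Neuron markers were called in both directions. Of 23 tested, 8 fell, 3 rose and 12 were not called, with a median of -0.73. That was 34.8% lower and 13% higher, against 5.31% and 10.6% of all genes. The markers' share of nuclear counts was 2.44% to 2.67% in the inputs and 0.742% to 1.08% in PAP TRAP. Snap25, a SNARE protein of vesicle fusion, fell from 4511, 4194 and 5216 CPM to 983, 685 and 1042 CPM (-2.36 ± 0.28). Vsnl1, a calcium sensor, fell from 1208, 1066 and 1314 CPM to 364, 399 and 560 CPM (-1.44 ± 0.25), and Gad2, a GABA-synthesizing enzyme, by 1.59 ± 0.37 on the log2 scale. The rises were those of Reln, reelin (3.01 ± 0.53, and 2.37 with length-corrected offsets), Slc12a5, the neuronal chloride exporter KCC2 (1.47 ± 0.35), and Celf4. Slc17a7, which loads glutamate into vesicles, did not pass, and neither did Gad1. Slc17a7 stood at 255, 206 and 254 CPM against 330, 238 and 435 CPM, and Gad1 at 57.4, 51.6 and 50.7 CPM against 29.7, 29.8 and 46.1 CPM. Of 13 interneuron genes 1 fell (7.69%, against 5.31% of all genes), which was Gad2.

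Genes of the presynapse were divided as well. Of 22 genes of vesicles and release 5 fell and 2 rose (22.7% and 9.09%, against 5.31% and 10.6% of all genes). The median was -0.06, above 0 in 2 of the alternatives, and 1 gene rose without cortex input 1, cortex input 3 or PAP TRAP 1. Beside Snap25, Nsf, the ATPase that takes SNARE complexes apart, fell from 497, 459 and 486 CPM to 170, 144 and 272 CPM (-1.30 ± 0.26). Bsn, bassoon, a giant scaffold of the release site, rose from 243, 232 and 250 CPM to 1257, 799 and 1010 CPM (2.08 ± 0.24, and 1.38 with length-corrected offsets). Syt1, the calcium sensor of release, stood at 707, 667 and 726 CPM against 913, 641 and 874 CPM and did not pass (0.21 ± 0.23).

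Receptor and channel genes rose in part, against 10.6% higher over all genes. The counts were 6 of 19 glutamate receptor subunits (31.6%, median 0.85) and 4 of 13 GABA receptor subunits (30.8%, median 0.37). Of 21 voltage-gated channels 6 rose (28.6%, median 0.82). None of the 3 lists had a lower member, but at the 5.31% of all genes lists this small would hold few. In the fit of the 6 libraries alone 13 voltage-gated channels rose, with DESeq2 11 and without the filter 10. With a minimum fold of 1.5, or without cortex input 1, 4 of them rose. With length-corrected offsets 4 rose as well, and their median was 0.44. Without PAP TRAP 1 the medians of the glutamate and GABA receptor subunits were 0.49 and 0.15, and without PAP TRAP 2 that of the GABA receptor subunits was 0.59. Grik5, a kainate receptor subunit, rose from 26.8, 31.2 and 40.5 CPM to 134, 115 and 220 CPM (2.25 ± 0.33, and 1.66 with GC-corrected offsets). Cacna1a, the pore of P/Q-type calcium channels, rose by 1.95 ± 0.34. Of 15 activity-dependent immediate early genes Arc rose, Homer1 fell (-0.85 ± 0.27, adjusted p = 0.0377) and the median was -0.61 (-0.22 without cortex input 2). Each direction held 6.67% of them, against 10.6% higher and 5.31% lower over all genes. The call of Homer1 ended without any 1 of the inputs and without PAP TRAP 1 or 2 (adjusted p from 0.0559 to 0.184).

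Markers of other glia and of vessels were measured beside these. Of 16 tested markers of myelinating oligodendrocytes 2 rose and none fell (12.5% higher, against 10.6% of all genes). Their share of nuclear counts was 0.507% to 0.558% in the inputs and 0.834% to 1.11% in PAP TRAP. Mbp, the myelin basic protein, whose message is carried into myelin processes, stood at 249, 338 and 304 CPM in the inputs and 2508, 2546 and 3433 CPM, 9.53-fold higher (95% interval 5.99 to 15.1). Mobp, another myelin protein with a transported message, rose by 1.22 ± 0.30 (adjusted p = 0.00797, and 0.0512 without cortex input 2). The median of the 16 was -0.08, and it changed sign in 6 of the alternatives. Of 11 markers of oligodendrocyte precursors 1 rose (9.09%, against 10.6% of all genes), the receptor gene Gpr17 (1.21 ± 0.37, adjusted p = 0.0336). Its call ended without cortex input 1 or 3 and without PAP TRAP 1 or 3 (adjusted p from 0.0833 to 0.162).

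Of 18 microglia markers 4 rose and none fell (22.2% higher, against 10.6% of all genes), and 2 rose without any 1 of the inputs. The markers' median was 1.08, and 0.41 without PAP TRAP 1. Their summed share of nuclear counts was 0.021% to 0.028% in the inputs and 0.035% to 0.053% in PAP TRAP. Csf1r, a growth factor receptor of microglia, went from 12.5, 9.44 and 13.6 CPM to 34.6, 31.5 and 48.3 CPM (1.68 ± 0.34), and Itgam, an integrin of myeloid cells, from 3.66, 6.12 and 7.76 CPM to 42.8, 18.3 and 35.0 CPM (2.46 ± 0.56). No endothelial marker of 9 and no mural marker of 4 passed, with medians of 1.63 and 1.26. In an edgeR fit of the 6 libraries alone, and with DESeq2, 4 endothelial markers were called higher. Meningeal markers summed to 0.017% to 0.025% in the inputs and 0.011% to 0.021% in PAP TRAP. Among 9 tested, Igf2 was lower and Fn1, fibronectin, higher, or 11.1% each, against 5.31% and 10.6% of all genes. Fn1 changed by 2.34 ± 0.66, and by 3.11 without cortex input 1. Its adjusted p was 0.102, 0.0894 and 0.120 without cortex input 2, cortex input 3 and PAP TRAP 3. Of 6 ependymal and choroid plexus markers Clic6 fell and none rose, and its call ended without cortex input 3, PAP TRAP 1 or PAP TRAP 2 (adjusted p = 0.0951, 0.0527 and 0.0521). The part of these cells in the results above was not tested.

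Some immunoglobulin and B-lineage transcripts had more counts in the pull-downs than in the inputs, while others did not. Of 5 blood and lymphoid markers tested Pou2af1 and Irf4 rose and the globin genes Hba-a1 and Hbb-bs fell. Leaving out any 1 of the 6 libraries ended both falls, and 1 gene rose without cortex input 1, cortex input 3 or PAP TRAP 2. The list's share of nuclear counts was 0.007% to 0.012% in the inputs and 0.007% to 0.027% in PAP TRAP, with the highest share in PAP TRAP 2. Pou2af1, a coactivator of B cells, measured 0.831, 0 and 0 CPM in the inputs and 6.49, 65.1 and 8.39 CPM in PAP TRAP (6.48 ± 1.37, adjusted p = 0.00324, and 4.66 without PAP TRAP 2). Without cortex input 1 the inputs left had 0 counts, so that fit gives no fold for it. Ighg2b, the constant region of an immunoglobulin heavy chain, had 0 counts in every input and 17, 28 and 18 counts in PAP TRAP. It was at least 28.6-fold higher, taken against a floor of 3 counts over the group, and its call (adjusted p = 0.0212) ended without any 1 of the inputs (adjusted p from 0.0845 to 0.0904). A set of further immunoglobulin and B-lineage genes was looked up after these values had been seen. Igkc, the kappa light chain, had 1, 1 and 0 counts in the inputs, 1, 0 and 0 in the synaptoneurosome inputs, 19, 246 and 45 in PAP TRAP, and 31, 38 and 15 in cortex TRAP, the pull-down from whole tissue. Ighg1, another heavy chain, had 0 counts in all 6 input libraries of either kind, 7, 145 and 3 in PAP TRAP and 36, 171 and 8 in cortex TRAP. Others of the set did not have more counts in every PAP TRAP library. Ighg2c had 4, 15 and 33 counts in the inputs and 4, 1 and 4 in PAP TRAP, and Ighm, the heavy chain of IgM, had 501, 219 and 273 against 228, 212 and 281. Prdm1, a factor of plasma cells, had 0, 22 and 98 counts against 3, 13 and 22. The B cell receptor genes Cd79a and Cd79b had 0 counts in every cortex input and every PAP TRAP library. Whether these transcripts came from the tissue or were brought in with the pull-down was not tested.

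Nuclear long noncoding RNAs and some messages of nuclear RNA processing fell. Of 7 nuclear long noncoding RNAs 4 fell, none rose and all 7 changes were below 0 (median -2.26). Their share of nuclear counts was 2.79% to 3.97% in the inputs and 0.028% to 0.076% in PAP TRAP. The call of Meg3, 1 of these 4 (-3.84, adjusted p = 0.0493), ended without any 1 of the 6 libraries (adjusted p from 0.0675 to 0.147). By annotated type, 6.79% of 560 long noncoding RNAs fell and 4.64% rose, against 5.32% and 10.9% of 12474 protein-coding genes. Of 29 genes of splicing and nuclear RNA processing 7 fell, 1 rose and 21 were not called. That was 24.1% lower and 3.45% higher, against 5.31% and 10.6% of all genes. The median was -0.49, and -0.84 without PAP TRAP 3. Without any 1 of the inputs or without PAP TRAP 1, 3 were lower. Srsf11, a splicing factor, fell from 56.2, 56.6 and 60.4 CPM to 19.7, 14.2 and 16.2 CPM (-1.79 ± 0.35). Prpf8, the core protein of the spliceosome, rose from 69.3, 63.4 and 81.4 CPM to 173, 163 and 229 CPM (1.40 ± 0.28). Of 307 numbered Zfp zinc finger genes 14 fell and 11 rose, near or below the shares of all genes, with a median of -0.62. Leaving out 1 library at a time gave 2 to 8 lower Zfp genes without any 1 of the inputs or without PAP TRAP 1 or 2, and 7 higher ones without cortex input 1 or 3. Of 28 chromatin regulators 6 rose (21.4%, against 10.6% of all genes) and none fell (median 0.57). Those that rose included the histone deacetylase genes Hdac5 (2.70 ± 0.46) and Hdac4 (2.03 ± 0.31).

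RNA-binding regulators of message localization and decay went both ways, with 3 of 25 higher and 3 lower (median -0.42). Each direction held 12% of them, against 10.6% higher and 5.31% lower over all genes. Elavl2, a neuronal binder of AU-rich RNA, fell from 56.7, 53.8 and 45.5 CPM to 13.8, 6.86 and 15.9 CPM (-2.09 ± 0.40), and its relative Elavl4 fell by 1.87 ± 0.39. Qk, quaking, a regulator of glial messages, rose from 345, 323 and 291 CPM to 900, 1792 and 1198 CPM (2.02 ± 0.26). The count of 3 higher genes was 1 without any 1 of the inputs and 1 without PAP TRAP 1.

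Mitochondrially encoded messages were higher while the organelle's ribosomal RNAs did not pass. Of 11 mitochondrial mRNAs tested 7 rose and none fell (median 1.5), and they took 2.06% to 2.35% of all gene counts in the inputs and 4.97% to 8.34% in PAP TRAP. mt-Co1, a cytochrome oxidase subunit, went from 2940, 4302 and 4752 CPM to 22747, 15060 and 15948 CPM (2.16 ± 0.24). The ribosomal RNAs mt-Rnr1 and mt-Rnr2 changed by 0.27 ± 0.23 and -0.24 ± 0.24 (adjusted p = 0.480 and 0.561). Nuclear genes of the respiratory chain had 1 of 79 members higher, Cox8a, and 1 lower, Ndufa8 (median -0.01). Each direction held 1.27% of them, against 10.6% higher and 5.31% lower over all genes. Both calls ended without cortex input 1, cortex input 3, PAP TRAP 2 or PAP TRAP 3, and that of Cox8a also without cortex input 2. Without the mitochondrial genes in the library sizes, the median change of all genes shifted from -0.04 to 0.11 on the log2 scale, and the share of higher genes among those called went from 66.6% to 76.2%.

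Of 71 cytosolic ribosomal protein genes 1 rose (1.41%, against 10.6% of all genes) and none fell (median 0.16). The gene that rose was Rpl4, whose call ended without any 1 of the inputs and without PAP TRAP 2 or 3 (adjusted p from 0.0548 to 0.0815). All 77 genes listed together held only 0.137% to 0.167% of nuclear counts in the inputs and 0.112% to 0.187% in PAP TRAP. At such low counts changes may be missed. Of 28 translation factors 4 rose and 1 fell (14.3% and 3.57%, against 10.6% and 5.31%). Eef2, the elongation factor that moves the ribosome along, rose from 111, 101 and 133 CPM to 427, 315 and 448 CPM (1.78 ± 0.29), and Pabpc1, the poly(A)-binding protein, rose by 1.15 ± 0.25. Eif4a2, a helicase of initiation, fell from 89.0, 103 and 103 CPM to 36.2, 28.3 and 51.3 CPM (-1.35 ± 0.31). The 4 higher factors were 2 without any 1 of the inputs, and the lower ones were 3 without PAP TRAP 2. Of 25 genes of translocation, chaperones and folding in the endoplasmic reticulum 9 rose and none fell (median 0.74), or 5 rose without cortex input 1 or 2. Hspa5, the chaperone BiP, went from 43.1, 44.7 and 39.8 CPM to 160, 92.0 and 144 CPM (1.63 ± 0.28). Of 20 proteasome subunits none rose and 3 fell (15% lower, against 5.31% of all genes, median -0.76). When any 1 of the inputs, PAP TRAP 1 or PAP TRAP 3 was left out, 0 or 1 fell.

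Genes of calcium signalling went both ways. Of 21 members 7 rose and 3 fell (33.3% and 14.3%, against 10.6% and 5.31% of all genes), with 1 lower without cortex input 1. The median was 0.78, and 0.46 without cortex input 3. With length-corrected offsets 5 rose and 5 fell, and the median was 0.19. Calm2 and Calm3 encode the same protein, calmodulin, from different messages. Calm2 fell as given above, and Calm3 went from 302, 262 and 265 CPM to 174, 107 and 156 CPM (-0.93 ± 0.23, adjusted p = 0.00995, and 0.0528 without cortex input 1). The difference between these changes was not tested. Itpr1, an inositol trisphosphate receptor of the endoplasmic reticulum, rose by 1.39 ± 0.24 (0.87 with length-corrected offsets), and Itpkb, a kinase of inositol trisphosphate, by 2.33 ± 0.41.

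The net change was set beside its 2 steps, synaptoneurosome input over cortex input and PAP TRAP over synaptoneurosome input, and beside cortex TRAP over cortex input. These comparisons share libraries with the net change and with each other, and the synaptoneurosome inputs held only 1423296 to 2476076 counts of nuclear genes. For astrocyte markers the medians were 1.75 for the fractionation, 1.05 for the pull-down and 4.20 for cortex TRAP, beside the net 3.05. For dendritic messages they were 0.62, 1.16 and -1.81 beside 1.79, and for spectrins, ankyrins and plakins 0.84, 1.28 and -2.04 beside 1.95. For mitochondrial mRNAs they were 3.85, -2.58 and -5.94 beside 1.5, and for microglia markers 2.60, -1.73 and -1.65 beside 1.08. Over all genes they were -0.14, 0.06 and 0.05. The pull-down median of astrocyte markers (1.05) was not above those of dendritic messages (1.16) and of spectrins, ankyrins and plakins (1.28). Whether the dendritic and spectrin messages were on astrocyte ribosomes was not tested.

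Single genes showed several patterns. Slc1a2 changed by 2.92 ± 0.26 with fractionation and 0.72 ± 0.24 with the pull-down, and by 3.28 ± 0.27 in cortex TRAP. Camk2a changed by 1.17, 1.70 and -3.11, Dst by 1.8, 1.89 and -2.06, and Mbp by 1.5, 1.75 and -2.63, so these messages were above input in PAP TRAP and below it in cortex TRAP. Igf2 changed by 0.67 with fractionation, by -3.87 with the pull-down and by -0.10 in cortex TRAP. Malat1 changed by -4.21, -1.54 and -5.53. Id3 and Sox9 were higher in cortex TRAP by 4.67 ± 0.38 and 4.20 ± 0.31, against net changes of -0.07 and 1.35. The direct comparison of PAP TRAP with cortex TRAP gave -4.74 ± 0.38 for Id3 (adjusted p = 1.34e-08) and -2.85 ± 0.29 for Sox9 (adjusted p = 2.82e-07).

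**Figure D4:**
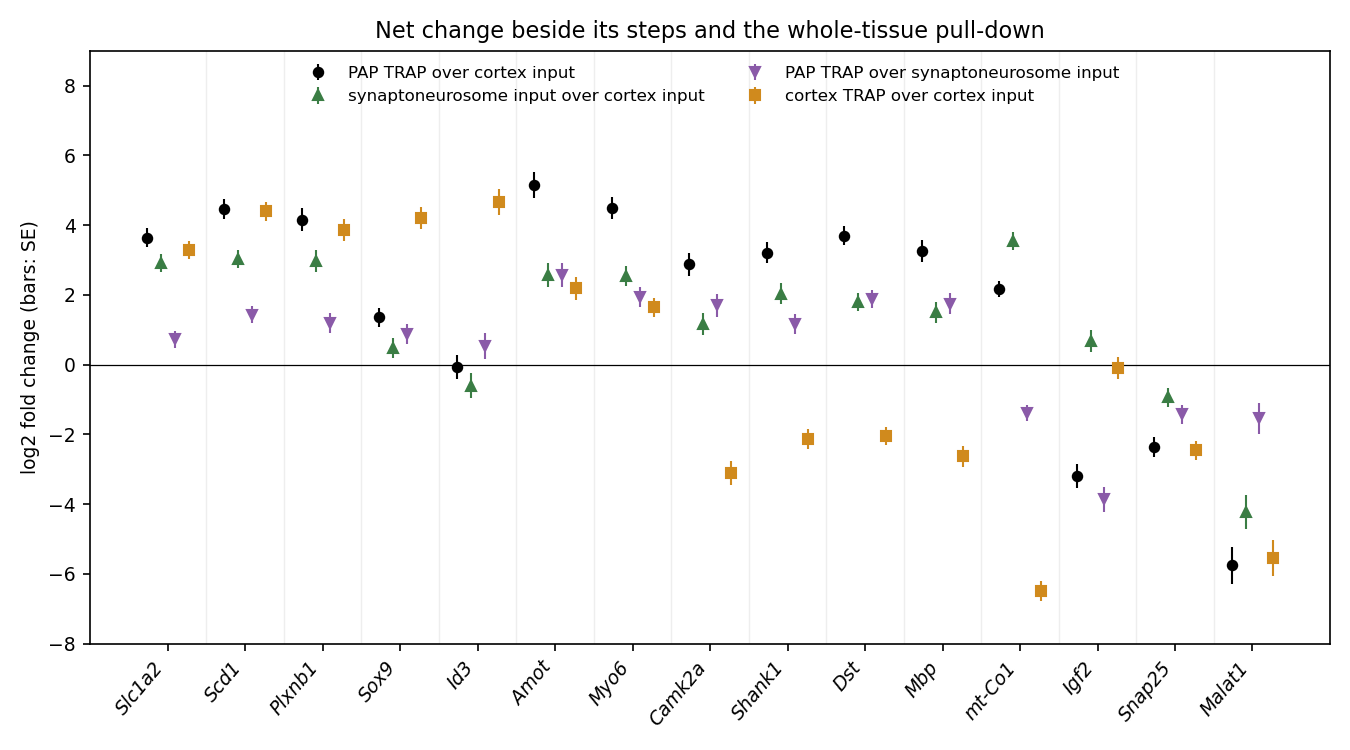
Log2 fold changes ± SE of 15 genes for PAP TRAP over cortex input (black circles), synaptoneurosome input over cortex input (green), PAP TRAP over synaptoneurosome input (purple) and cortex TRAP over cortex input (orange). The comparisons share libraries. Orange squares lie below 0 where black circles lie above it for Camk2a, Shank1, Dst, Mbp and mt-Co1.

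Levels divided by transcript length put different genes on top in each group. In PAP TRAP the highest nuclear gene was Slc1a2 with 2536 ± 846 CPM per kb (SD, n = 3), followed by Camk2a with 2011 ± 438 CPM per kb. These neighbours did not differ beyond their spread. Cpe, a carboxypeptidase that processes secreted peptides, Ndrg2, an astrocyte protein, and Glul came next. In cortex input Slc1a2 ranked 26, Camk2a 15, Cpe 78, Ndrg2 89 and Glul 83. The highest gene in cortex input was Malat1 with 1710 ± 354 CPM per kb, which ranked 619 in PAP TRAP with 31.6 ± 16.7 CPM per kb. Snap25 ranked 3 in cortex input and 64 in PAP TRAP, and Calm2 ranked 4 and 160.

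Some called genes were counted in 1 group only. There were 13 with 0 counts in every cortex input and 26 with 0 counts in every PAP TRAP library. Rn7sk, the 7SK RNA that holds back transcription elongation in the nucleus, had 177, 75 and 92 counts in the inputs and none in PAP TRAP, at least 82.5-fold lower against the floor of 3 counts over the group. Gm16185, annotated as an antisense transcript, had 208, 65 and 165 counts against none, at least 105-fold lower, and its counts are uncertain without a known strand setting. Fgf5, a secreted growth factor, had 90, 45 and 29 counts against none, at least 39.4-fold lower. In the other direction Slc25a21, a mitochondrial carrier of oxodicarboxylates, had 0 counts in the inputs and 12, 22 and 8 counts in PAP TRAP, at least 19.2-fold higher.

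Called genes differed in transcript length and base composition. Among protein-coding genes the median annotated length was 4520 bases for the higher, 3534 for the lower and 3510 for those not called, and the median GC content was 51.7%, 44.8% and 49.5%. The protein-coding genes were also cut into 5 groups of near-equal size. In the group of longest transcripts 19.1% were higher and 4.65% lower, against 5.57% and 5.53% in the group of shortest. In the group with the lowest GC content 6.30% were higher and 11.1% lower, and in that with the highest 15.5% and 1.92%. With offsets corrected for GC content 1358 genes were higher and 570 lower, and with offsets corrected for length 1326 and 836.

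**Figure D5:**
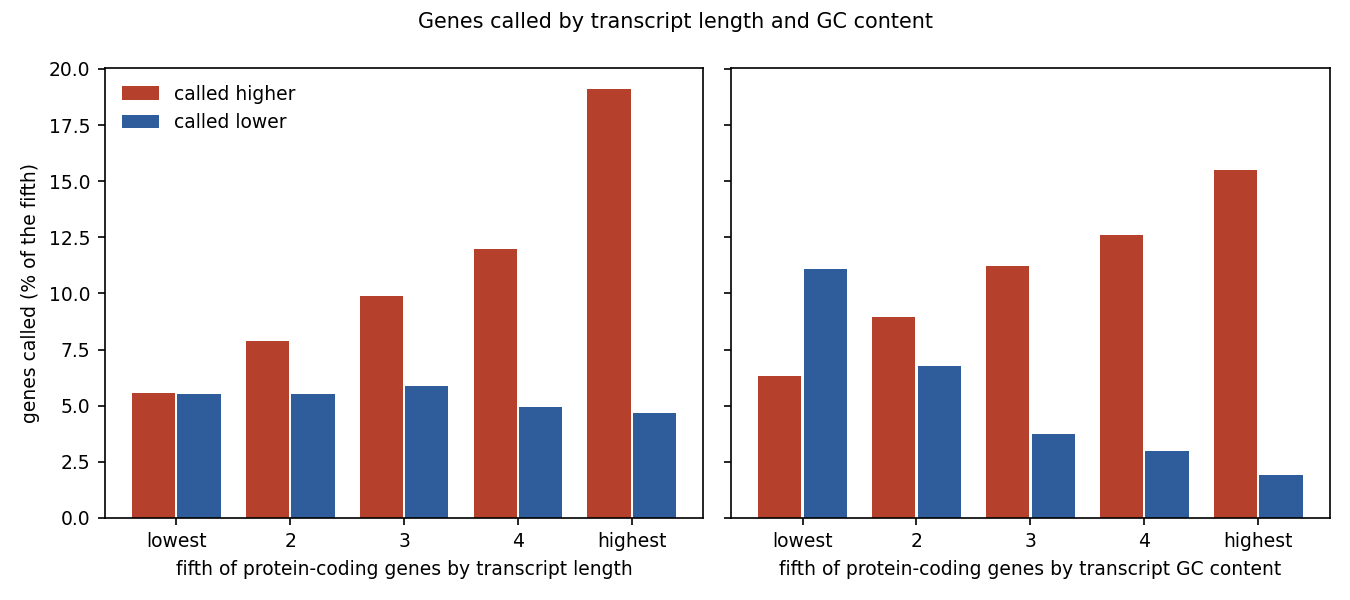
Percent of protein-coding genes called higher (red) and lower (blue) in PAP TRAP, in 5 groups by transcript length (left) and by transcript GC content (right). Higher calls go from 5.57% in the shortest to 19.1% in the longest group, and lower calls from 11.1% in the lowest to 1.92% in the highest GC group.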

How the data were processed

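RNA-seq of 12 libraries gave raw counts of reads per gene, deposited as whole numbers by the authors. Per the labels' protocols, cDNA was made from 2 ng of RNA, amplified by SPIA, and made into libraries from 500 ng of fragments near 200 bp. The tools HTSeq, STAR, Bowtie2 and Trimmomatic 0.32 are named, per the submitters' processing notes. Build, annotation and strand were not given in the sources used here. Counts of overlapping, antisense and near-identical genes are therefore uncertain. Amplified reads are not independent molecules, and floors cover counting error only.

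Rows naming no gene stayed out. Symbols were matched for 40254 of 41388 identifiers, and GENCODE M21 gave transcript length and GC content. Genes were kept by filterByExpr (minimum count 10, minimum total 15). All 12 libraries were fitted with 1 mean per group (edgeR 4.0.16, R 4.3.3, TMM), the contrast was tested by the quasi-likelihood F test, and Benjamini-Hochberg values under 0.05 over 13364 genes were called. Counts were simulated for this comparison with 12800 genes, of which 100 changed 2-fold, 100 changed 4-fold and all others were equal. In them 47% of 4-fold and 4% of 2-fold changes were recovered, and 3 calls (5.56%) were false. Far fewer genes changed there than the 2122 called in the data, which makes the cutoff stricter, so recovery in the data may differ.

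After each gene's group mean was subtracted from its log2 CPM, same-numbered libraries of the compared groups correlated at 0.027, 0.028 and 0.080. The numbers were therefore not taken as pairs. The comparison and the 44 gene lists were chosen with earlier results of these data known. Named genes were the 12 largest rises and falls among called genes without overlap and whose mean log2 CPM was 3 or more. Up to 2 risen and 2 fallen members per list by smallest p, a set of well-known genes, the 10 highest levels per length in each group, and called genes at 0 in 1 group were added. Celf4, Rpl10a, the immunoglobulin and B-lineage genes looked up later and the mitochondrial ribosomal RNAs stand outside this rule, and some genes it names are not reported here. Alternatives were RLE scaling, no filter, the 6 libraries alone, a replicate block, no mitochondrial genes, glmTreat with a minimum fold of 1.5, offsets corrected for GC content or length (loess span 0.3), DESeq2 1.42.0, and each library left out.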

Additional observations from a re-analysis of the deposited data

Results flagged for a closer look

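Reads that entered no gene count differed between the groups. The share not aligned averaged 7.12% in PAP TRAP, with 4.60%, 11.9% and 4.82% in PAP TRAP 1, 2 and 3, against 2.77% to 3.23% in the inputs. The share aligned to more than 1 place averaged 24.8% in PAP TRAP, with 23.8%, 29.3% and 21.3%, against 17.5% to 18.6% in the inputs. Every PAP TRAP library lay above every cortex input in both shares. The part of these reads in the results above was not tested.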

How the results depend on the processing

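Over 16 alternatives, 10 of setting and 6 of leaving out a library, all 2122 called genes that could be tested kept their direction, except 1 with length-corrected offsets and 1 without PAP TRAP 1. The count of called genes was 1308 with a minimum fold of 1.5 (350 lower). It was 1314 to 1752 with a library left out (353 to 541 lower), fewer samples each. DESeq2 called 1072 genes lower. The fit of the 6 libraries alone called 2674 of 12123 genes tested, 1620 higher and 1054 lower. With the replicate block, which was not taken as pairing, 2164 genes were called, 1410 higher and 754 lower, and with GC-corrected offsets added 1975. After group means were subtracted, PAP TRAP 1 and 3 correlated best with the input of their own number, and PAP TRAP 2 with cortex input 1.

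Of 150 named genes, 2 that passed no test changed sign. Ywhae, a 14-3-3 protein, had 0.035 with RLE scaling and with DESeq2, 0.0011 with the 6 libraries alone, 0.025 with the replicate block, 0.24 with block and GC correction, 0.14 without mitochondrial genes, 0.21 with GC-corrected offsets and 0.17 with length-corrected ones. With a library left out it ranged from -0.19 to 0.21. Id3 had 0.086 without mitochondrial genes, 0.18 with length-corrected offsets and -0.30 to 0.23 with a library left out. The cause was not tested. In the simulation, where few genes changed, few 2-fold changes were recovered. Small differences may be missed in the data too, and no call here says that levels were equal.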

Other observations

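Other RNAs of the mitochondrial chromosome and some abundant messages add to the picture. Of 16 tested mitochondrial tRNAs and ribosomal RNAs 13 rose and none fell (median log2 change 3.76). Of 217 pseudogenes 8 rose and none fell, or 3.69% against 10.6% of all genes. Mt2, a metallothionein that binds zinc, went from 55.8, 32.9 and 99.2 CPM to 241, 557 and 562 CPM (2.86 ± 0.44). Dbi, which encodes the acyl-CoA binding protein, went from 70.2, 55.4 and 85.6 CPM to 330, 876 and 432 CPM (2.96 ± 0.33). Cst3, the secreted protease inhibitor cystatin C, went from 94.3, 91.7 and 90.6 CPM to 430, 1027 and 661 CPM (2.94 ± 0.28). For all 3 genes the groups did not overlap, and PAP TRAP 1 was the lowest of its group.

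The 14-3-3 genes Ywhaz and Ywhae, whose proteins bind phosphorylated partners, were both among the most abundant per length in cortex input. Ywhaz fell from 1859, 1603 and 1921 CPM to 473, 565 and 704 CPM (-1.63 ± 0.26, adjusted p = 0.000244). Ywhae overlapped between the groups at 753, 694 and 841 CPM against 523, 948 and 814 CPM. The difference between these changes was not tested.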
